A study of Mus musculus with 24 samples.

Results

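The miRNAs described here come from 3 heart and muscle myosin genes: miR-208a-3p and miR-208a-5p, the 2 arms of the hairpin in Myh6, miR-208b-3p from Myh7, and miR-499-5p from Myh7b. They were chosen by name because miR-208a-3p is the miRNA in the study's title, and they make up 4 of the 1950 mature miRNA names that the 3 deposited tables list. Small RNA was sequenced from the lungs of C57BL/6 mice. An age of 6 to 8 weeks is given for every library, whatever its day. One set of mice received 15 Gy of X-rays over the whole thorax with the rest of the body spared, and the controls were not irradiated. Lungs were taken at day 14, day 90 and day 180, which gives 6 groups of 4 libraries, 24 in all. The title also names the phosphatase gene PPP6C and radiation-induced lung injury, so the question put to these libraries is whether miR-208a-3p differs between irradiated and control lung and at which time. Nothing in the labels ties the 4 libraries of a group to 4 animals, so a p-value measures the spread between these libraries, which may be technical.

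A miRNA is cut as a short duplex from a hairpin transcript, and the strand that is kept guides the silencing complex to messages that pair with its seed, the bases from position 2 to position 8. The 3 hairpins are carried in introns of myosin heavy chain genes and are known as regulators of myosin choice and stress growth in heart muscle. Myh6 encodes the fast alpha myosin of the adult mouse heart, Myh7 the slow beta myosin of the fetal heart and of slow skeletal muscle, and Myh7b a slow-type myosin of heart and skeletal muscle. In mice, sleeves of heart muscle surround the pulmonary veins and reach into the lung.

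The mature sequences are shown because 3 of the 4 miRNAs share most of a seed while their counts behaved differently. All 4 were found in RefSeq on the build that the submitters name, GRCm38.p6, and the capitals mark the seed, read from the 5′ end.
mmu-miR-208a-3p: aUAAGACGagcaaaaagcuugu
mmu-miR-208b-3p: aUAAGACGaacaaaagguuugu
mmu-miR-499-5p: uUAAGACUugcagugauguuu
mmu-miR-208a-5p: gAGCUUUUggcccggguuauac
miR-208a-3p and miR-208b-3p have the same seed and are identical at 19 of 22 bases, with the differences G10A, A16G and C18U (base of miR-208a-3p, position from the 5′ end, base of miR-208b-3p). miR-499-5p shares the first bases of that seed but ends it with U in place of G, and it is identical to miR-208a-3p at 12 of the 21 bases compared. miR-208a-5p has an unrelated seed, which it shares with the other arm of the Myh7 hairpin, miR-208b-5p, an arm with 0 or 1 count in every library. Only 6 of 1679 mature mouse sequences in the RefSeq table carry 1 of these 3 seeds. No other miRNA of the tables has counts identical to those of a myosin-gene miRNA in all libraries of a day, and the sources used here do not give how many mismatches were allowed, which bears on reads of miR-208a-3p and miR-208b-3p.

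The hairpins are shown in full, with the mature arms in capitals, because the 2 arms of the Myh6 hairpin are compared below. Mir208a lies at chr14:54949060-54949142 on the minus strand, in intron 29 of Myh6. Mir208b lies 26557 bases away at chr14:54975700-54975776 on the same strand, in intron 31 of Myh7. Mir499 lies at chr2:155622880-155622958 on the plus strand, in intron 19 of Myh7b. None of the 3 overlaps an exon of its host in any annotated transcript.
Mir208a: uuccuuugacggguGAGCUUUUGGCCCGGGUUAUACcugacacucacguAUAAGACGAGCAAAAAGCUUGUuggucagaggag
Mir208b: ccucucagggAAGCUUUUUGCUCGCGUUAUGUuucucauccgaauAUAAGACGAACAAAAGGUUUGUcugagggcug
Mir499: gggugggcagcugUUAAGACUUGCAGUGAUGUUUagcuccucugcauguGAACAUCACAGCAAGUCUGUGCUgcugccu

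The libraries held 2832205 to 3695133 miRNA counts each, and levels are given as CPM, counts scaled to a common library total. The test was edgeR's quasi-likelihood F-test on the counts of each day, with Benjamini-Hochberg adjustment over all miRNAs tested and a threshold of 0.05. It called 0 miRNAs at day 14 (27 at an unadjusted p under 0.05, 1 with DESeq2 and 0 with limma-voom), 2 of 558 at day 90 (71 unadjusted, 19 with DESeq2 and 3 with limma-voom) and 0 of 552 at day 180 (101 unadjusted, 28 with DESeq2 and 0 with limma-voom). Counts do not separate molecules from PCR copies, so intervals cover counting error only, and in whole lung fewer cells of a type and less RNA per cell cannot be told apart. The miRNAs of lung endothelium, lung epithelium and smooth muscle were abundant in every library, with sums of 35794 to 57787, 30447 to 68709 and 30391 to 43398 CPM. Control library 2 of day 14 stood apart, with miR-206-3p, a skeletal muscle miRNA, at 639.8 CPM against 5.12 to 16.1 CPM in the other controls of that day, and miR-205-5p, of stratified epithelium, at 731 CPM against 30.1 to 61.2 CPM. Irradiated library 1 of day 180, the smallest of the 24, stood apart as well, with miR-145a-3p at 2491 CPM against 461 to 503 and miR-486a-5p at 1904 CPM against 16.1 to 69.6 in the other irradiated libraries of that day.

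None of the 4 myosin-gene miRNAs passed the adjusted threshold on any day, against 0%, 0.358% and 0% of all miRNAs tested at day 14, 90 and 180. All 4 passed the filter on low counts on every day. The day 90 irradiated lungs had the highest median level of each of the 4, and miR-208a-3p covered by far the widest range, from 0 to 1417 counts per library. At an unadjusted p under 0.05, 3 of 4 were higher in irradiated lung at day 14, where 1.8% of all miRNAs tested were, and 3 of 4 at day 90, where 8.24% were. At day 180, 1 of 4 was lower by the same measure, where 7.43% of all miRNAs tested were.

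**Figure D1:**
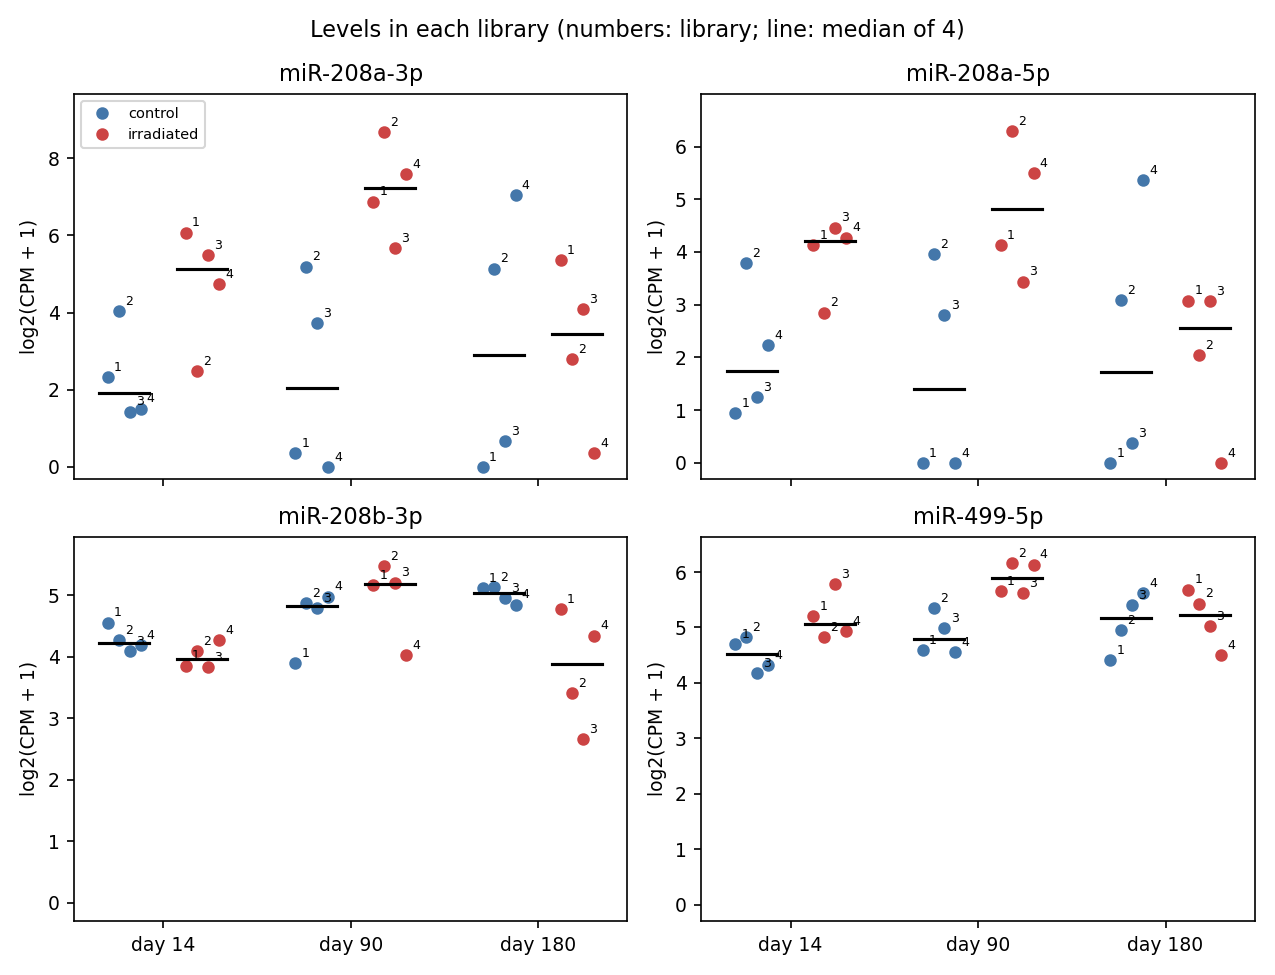
Level of each myosin-gene miRNA in each of the 24 libraries, as log2(CPM + 1) on the y axis, by day on the x axis, with controls in blue and irradiated lungs in red. Points carry the library number and the black line is the median of 4 libraries. The 4 irradiated libraries of day 90 lie above the 4 controls for miR-208a-3p and miR-499-5p, and the 4 irradiated libraries of day 180 lie below the controls for miR-208b-3p.

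miR-208a-3p was sparse and uneven in control lung. The 4 day 14 control libraries held 13, 52, 5 and 6 counts of it, which is 4.02, 15.4, 1.71 and 1.84 CPM, and the irradiated libraries held 201, 14, 136 and 83 counts, or 66.1, 4.58, 44.1 and 25.8 CPM. Irradiated libraries 1, 3 and 4 stood above every control, while irradiated library 2 lay between the controls, so the groups overlapped. The means were 35.1 ± 26.2 CPM (SD, n = 4) in irradiated and 5.74 ± 6.53 CPM (SD, n = 4) in control lung. The fit gave a log2 fold change of 2.59, with an SE of 0.89, which did not pass (edgeR adjusted p = 0.804). All further errors of log2 fold changes are SE. The two-sided exact permutation test gave p = 0.0571, where 0.0286 is the smallest that 4 against 4 libraries allow. With same-numbered libraries taken as pairs, 3 of 4 pairs were higher and the exact permutation p was 0.25, where 0.125 is the smallest that 4 pairs allow. The highest control was library 2, the one that stood apart in skeletal muscle and stratified epithelium miRNAs. Without it the log2 fold change was 3.79 (edgeR adjusted p = 0.496).

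At day 90 the difference in miR-208a-3p was largest and the groups did not overlap. The control libraries held 1, 120, 41 and 0 counts, or 0.289, 35.5, 12.3 and 0 CPM, and the count of 0 allows a level of up to 0.770 CPM, the level of 3 counts. The irradiated libraries held 408, 1417, 168 and 750 counts, or 116, 409, 50.0 and 192 CPM. The lowest irradiated library was 1.41 times the highest control, and the spread within each group was also wide. The means were 192 ± 156 against 12.0 ± 16.6 CPM (SD, n = 4 each), 16.0 times as high in irradiated lung. The log2 fold change was 4.00 ± 1.21, with an adjusted p of 0.216 from edgeR and p = 0.0286 in the exact permutation test, and 4 of 4 irradiated libraries were higher. It was 5.52 without control library 2, the highest control, and 3.29 without irradiated library 2, the highest irradiated one (edgeR adjusted p = 0.152 and 0.438). The test that kept all miRNAs with any count, without the filter on low counts, gave an adjusted p of 4.51e-05 for the same miRNA with edgeR, and over the 16 alternatives run the adjusted p lay between 4.51e-05 and 0.456.

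At day 180 miR-208a-3p ranged more widely in controls than in irradiated lungs. The control libraries held 0, 128, 2 and 420 counts, or 0, 34.2, 0.583 and 130 CPM, and the irradiated libraries held 97, 21, 63 and 1 counts, or 40.0, 5.94, 15.9 and 0.276 CPM. Each group held libraries at or near 0 beside libraries well above, and the irradiated values lay inside the control range. The means were 15.5 ± 17.6 against 41.2 ± 61.3 CPM (SD, n = 4 each), and the log2 fold change was -1.42 ± 1.55, with an adjusted p of 0.658 from edgeR and p = 0.686 in the exact permutation test. The sign of this value turned without control library 4 (0.40, edgeR adjusted p = 0.927), and it was -2.47 without irradiated library 1, the library that stood apart. The count of 0 in control library 1 allows up to 0.797 CPM. In a fit with the library number as a block, the log2 fold change was 0.32, though same-numbered libraries did not deviate together on that day (correlations of -0.356 to -0.0934).

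miR-208a-5p, the other arm of the same hairpin, was lower in count and was mostly high and low in the same libraries. It had, at day 14, 3, 43, 4 and 12 counts in controls and 50, 19, 65 and 59 in irradiated lungs, with means of 15.5 ± 6.48 against 4.68 ± 5.51 CPM (SD, n = 4 each). Control library 2 was again the highest control and irradiated library 2 the lowest irradiated library, and only these overlapped. At day 90 it had 0, 49, 20 and 0 counts in controls and 58, 267, 33 and 172 in irradiated lungs, with means of 36.8 ± 30.6 against 5.12 ± 6.85 CPM. The irradiated library with the lowest level, library 3 at 9.81 CPM, lay below control library 2 at 14.5 CPM, so these groups overlapped where those of the 3p arm did not. At day 180 it had 0, 28, 1 and 130 counts in controls and 18, 11, 29 and 0 in irradiated lungs, with means of 4.47 ± 3.60 against 12.0 ± 19.1 CPM. The log2 fold changes were 1.70 ± 0.72 at day 14, 2.86 ± 1.09 at day 90 and -1.43 ± 1.41 at day 180, with edgeR adjusted p of 0.883, 0.301 and 0.612. The day 14 value was 2.94 without control library 2, the day 90 value 4.22 without control library 2 and 2.18 without irradiated library 2, and the day 180 value was 0.74 without control library 4.

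miR-208b-3p, which differs from miR-208a-3p at 3 bases and shares its seed, was more even. It lay between 21 and 151 counts in all 24 libraries and was never near 0. The day 14 controls had 22.6, 18.4, 16.0 and 17.2 CPM and the irradiated lungs 13.5, 16.0, 13.3 and 18.3 CPM, overlapping ranges whose log2 fold change was -0.28 ± 0.19 (edgeR adjusted p = 0.919). At day 90 the controls had 13.9, 28.4, 26.7 and 30.5 CPM and the irradiated lungs 35.0, 43.6, 36.0 and 15.4 CPM. There 3 of 4 irradiated libraries stood above every control while library 4, the second highest in miR-208a-3p, was the lowest of its group, and the log2 fold change was 0.38 ± 0.34 (edgeR adjusted p = 0.713).

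At day 180 miR-208b-3p was lower in every irradiated library than in any control. The controls had 127, 128, 103 and 90 counts, or 33.8, 34.2, 30.0 and 27.9 CPM, and the irradiated lungs had 64, 34, 21 and 70 counts, or 26.4, 9.61, 5.31 and 19.3 CPM. The control libraries were tightly grouped and the irradiated ones spread over a several-fold range below them. A wide spread in these irradiated libraries was not particular to this miRNA. The chi-square per degree of freedom, spread against counting error, was 20.1 for miR-208b-3p, beside a median of 32.6 over all miRNAs tested. In the controls that median was 4.92. The means were 15.2 ± 9.52 against 31.5 ± 3.05 CPM (SD, n = 4 each). The log2 fold change was -1.06 ± 0.45, with an adjusted p of 0.263 from edgeR. The exact permutation test gave p = 0.0286 (0.0857 adjusted over the 4 miRNAs and 3 days). The log2 fold change was -1.47 without irradiated library 1, the highest of its group and the library that stood apart (edgeR adjusted p = 0.0755). Such a separation with lower values in irradiated lung was seen in 6.52% of all miRNAs tested at day 180, and in 1 of the 4 myosin-gene miRNAs.

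miR-499-5p, from the Myh7b intron, had the smallest SD of log2 CPM within groups of the 4, taken over all groups, with 50 to 270 counts in all libraries. Relative to the mean, miR-208b-3p spread less in both groups of day 14 and in the day 180 controls. The day 14 controls had 81, 92, 50 and 62 counts, or 25.0, 27.3, 17.1 and 19.1 CPM, and the irradiated lungs had 109, 84, 167 and 95 counts, or 35.9, 27.5, 54.1 and 29.5 CPM. All irradiated libraries stood above all controls, the lowest by a factor of 1.01 over the highest control, a margin within counting error, since their exact 95% intervals overlap. Such a separation with higher values in irradiated lung was seen in 0.802% of all miRNAs tested at that day, and miR-499-5p was the 1 of the 4 myosin-gene miRNAs that showed it. The means were 36.7 ± 12.1 against 22.1 ± 4.82 CPM (SD, n = 4 each), and the log2 fold change was 0.73 ± 0.27, with an adjusted p of 0.804 from edgeR. The exact permutation p was 0.0286 unpaired (0.0857 adjusted over the 4 miRNAs and 3 days). Over the 4 pairs of numbers, all of them higher, it was 0.125, the smallest possible.

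At day 90 miR-499-5p had 80, 135, 102 and 88 counts in controls, or 23.2, 39.9, 30.6 and 22.6 CPM, and 173, 245, 162 and 270 counts in irradiated lungs, or 49.2, 70.7, 48.2 and 69.1 CPM. The groups did not overlap, and the lowest irradiated library was 1.21 times the highest control. With miR-208a-3p this made 2 of the 4 that separated with higher values, where 4.84% of all miRNAs tested did. The means were 59.3 ± 12.3 against 29.1 ± 8.09 CPM (SD, n = 4 each), and the log2 fold change was 1.03 ± 0.25 (edgeR adjusted p = 0.119). The exact permutation test gave p = 0.0286 (0.0857 adjusted over the 4 miRNAs and 3 days). DESeq2 gave miR-499-5p an adjusted p of 0.00728, and the adjusted p lay between 0.00728 and 0.394 over the alternatives run. At day 180 the controls had 20.2, 29.9, 41.4 and 48.0 CPM and the irradiated lungs 50.4, 42.1, 31.6 and 21.6 CPM, nearly the same range, and the log2 fold change was 0.06 ± 0.36 (edgeR adjusted p = 0.947).

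On the log2 scale, the spread between libraries of 1 group was among the widest of the table for the 2 arms of miR-208a. Over the 24 libraries in 1 scaling, the SD of log2 CPM within groups was 2.36 for miR-208a-3p, rank 4 of 624 miRNAs, and 1.87 for miR-208a-5p, rank 11. It was 0.55 for miR-208b-3p, rank 255, and 0.42 for miR-499-5p, rank 398, beside a median of 0.49. The spread of miR-208a-3p was beyond counting error in every group. The chi-square per degree of freedom of its counts ran from 23.7 in day 14 controls to 435 in day 90 irradiated lungs. The medians over all miRNAs tested were 9.03 and 7.98 in these groups, and the value of 435 ranked 51 of 558. For miR-208b-3p the chi-square per degree of freedom ran from 1.02 in day 180 controls, close to pure counting error, to 20.1 in day 180 irradiated lungs. miR-208a-3p was not among the most abundant miRNAs, with a mean of 48.6 CPM over the 24 libraries, rank 270 of 624.

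In the same scaling the median level of miR-208a-3p ran, from low to high, from 3.26 CPM in day 14 controls over 5.70 in day 90 controls, 10.4 in day 180 irradiated lungs, 16.5 in day 180 controls and 39.0 in day 14 irradiated lungs to 145 CPM in day 90 irradiated lungs. Every pair of neighbours in this order overlapped. The highest group median was 44.4 times the lowest for miR-208a-3p and 10.5 times for miR-208a-5p, but 2.49 times for miR-208b-3p and 2.26 times for miR-499-5p. No myosin-gene miRNA differed between controls of different days by the test (edgeR adjusted p between 0.378 and 0.985), where 0.801%, 4.65% and 0.16% of 624 miRNAs passed for day 90 against 14, day 180 against 14 and day 180 against 90. Day and table cannot be told apart in these comparisons.

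Whether the difference between irradiated and control lung itself differed between days was tested in a fit of all 24 libraries, in which 0% of 624 miRNAs passed for any pair of days (28, 71 and 91 at an unadjusted p under 0.05 for day 90 against 14, day 180 against 14 and day 180 against 90). For miR-208a-3p the log2 fold change was lower at day 180 than at day 90 by a difference of -5.44 ± 2.04 (edgeR adjusted p = 0.272, unadjusted p = 0.0142), or -6.86 without control library 2 of day 90 and -3.46 without control library 4 of day 180. The same difference was -4.31 ± 1.81 for miR-208a-5p, -1.46 ± 0.53 for miR-208b-3p and -0.98 ± 0.43 for miR-499-5p, with edgeR adjusted p of 0.292, 0.272 and 0.300. Between day 90 and day 14 the difference for miR-208a-3p was 1.45 ± 1.99 (edgeR adjusted p = 0.996), and 0.24 to 2.94 with 1 library left out, lowest without control library 2 of day 14 and highest without control library 2 of day 90. None of the 4 differences between day 180 and day 90 passed the threshold, and miR-208a-3p and miR-208a-5p are arms of 1 hairpin.

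**Figure D2:**
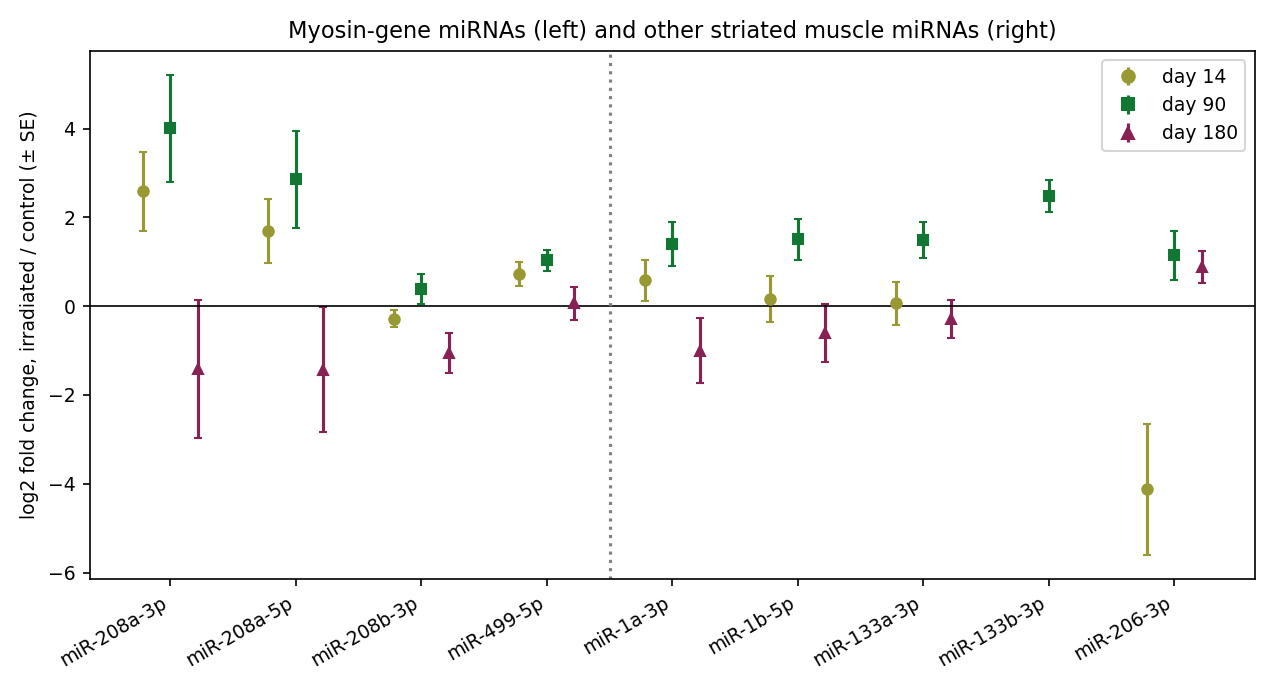
Log2 fold change between irradiated and control lung (y axis, ± SE from the edgeR fit of each day) for the 4 myosin-gene miRNAs left of the dotted line and 5 other striated muscle miRNAs right of it, by day. miR-208a-3p has the highest value of the 9 at day 90, 4.00 ± 1.21, and miR-206-3p the lowest at day 14, where control library 2 is the library at 639.8 CPM; miR-133b-3p was tested at day 90 only.

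The proportions among these miRNAs were compared within libraries, since such a ratio does not depend on how libraries are scaled. The ratio was taken as log2 with 1 count added to each miRNA, and 9 tests were made, 3 ratios on 3 days. At day 90 the log2 ratio of miR-208a-3p to miR-208b-3p was -4.61, 0.32, -1.10 and -6.91 in the controls and 1.72, 3.22, 0.47 and 3.62 in the irradiated lungs. Of the 2 miRNAs with the same seed, miR-208b-3p was the more abundant in 3 of 4 controls and miR-208a-3p in 4 of 4 irradiated libraries, although control library 2 and irradiated library 3 lay close together. The difference of means was 5.33 (exact permutation p = 0.0286, 0.0857 after Benjamini-Hochberg adjustment over the 9 tests, which does not pass 0.05). It was 4.06 to 6.47 with 1 library left out, and the mean depends on the count added to controls at 0 and 1. Against miR-499-5p the day 90 log2 ratio ran from -6.48 to -0.17 in controls and from 0.05 to 2.53 in irradiated lungs, with the same exact permutation and adjusted p and a difference of 4.64 (3.59 to 5.69 with 1 library left out).

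The 2 arms of the Myh6 hairpin were compared by the share of the 3p arm. The day 90 test of their log2 ratio, 1 of the 9, gave a difference of 1.59 (exact permutation p = 0.0286, 0.0857 adjusted over the 9). It cannot decide on the arms, since controls 1 and 4 held 1 and 0 counts of the hairpin and were placed by the added count. The adjusted p of the other day 90 ratios counts this test among the 9. The 3p arm made up 87.6%, 84.1%, 83.6% and 81.3% of the miR-208a counts in the irradiated libraries. In control libraries 2 and 3 it made up 71.0% (exact 95% interval 63.5% to 77.7%) and 67.2% (54.0% to 78.7%). At day 14 the share ran from 42.4% to 80.1% in irradiated and from 33.3% to 81.3% in control lungs, with a difference in log2 ratio of 0.42 (exact permutation p = 0.6). At day 180, where control libraries 1 and 3 and irradiated library 4 held 0 to 3 counts of the hairpin, the share was 82.1% and 76.4% in control libraries 2 and 4 and 84.3%, 65.6% and 68.5% in irradiated libraries 1 to 3. The day 14 and day 180 ratios of miR-208a-3p to the other 2 miRNAs did not pass either, with differences of 2.85 and 1.88 at day 14 and 1.55 and 0.21 at day 180.

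**Figure D3:**
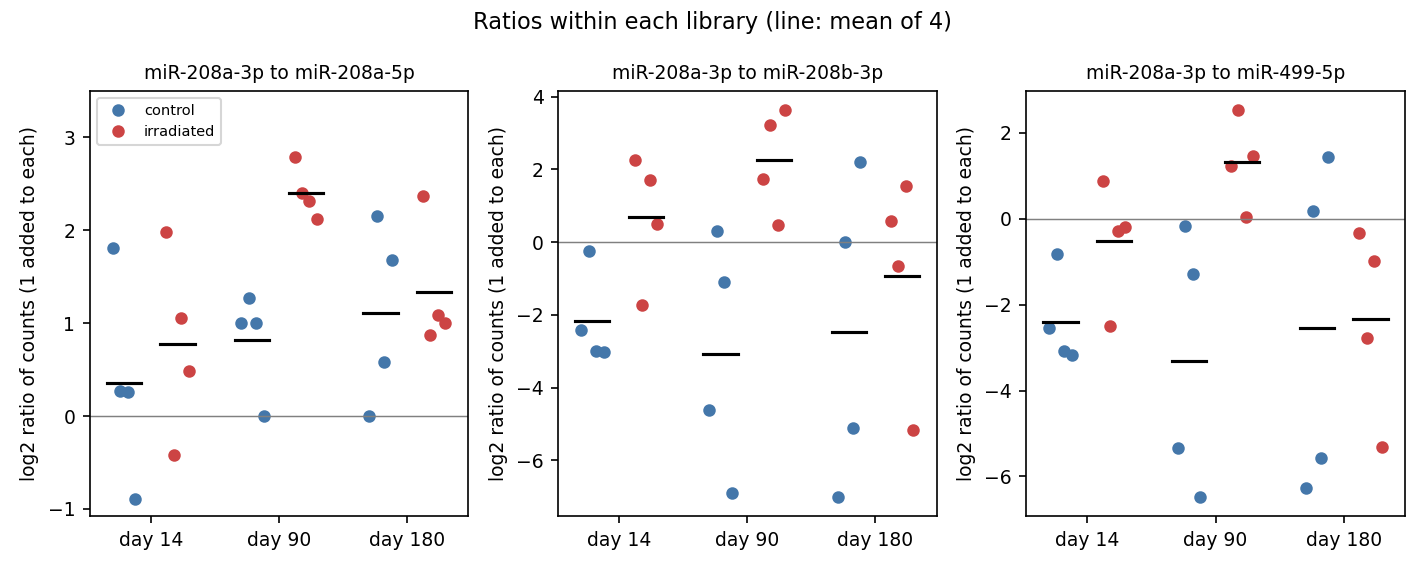
Log2 ratio of miR-208a-3p counts to those of miR-208a-5p, miR-208b-3p and miR-499-5p (y axis, 1 count added to each) in each library by day, with controls in blue, irradiated lungs in red and the mean of 4 libraries as a line. At day 90 the 4 irradiated libraries lie above the 4 controls against miR-208b-3p and miR-499-5p, and the groups overlap at day 14 and day 180. In the panel against miR-208a-5p, libraries at 0 or 1 count of the hairpin (day 90 controls 1 and 4 among them) are placed by the added count alone.

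Across the 24 libraries, miR-208a-3p went with its own arm partner and with miR-499-5p, but not with its closest relative in sequence. The correlation of log2(CPM + 1) between miR-208a-3p and miR-208a-5p was r = 0.952 and rho = 0.937 (both with permutation p = 1e-05, the smallest that 100000 permutations can give, 3e-05 adjusted over 6 pairs). It was r = 0.936 without the 2 libraries farthest from the median, and rho was 0.857, 0.970 and 0.994 within day 14, 90 and 180. With miR-499-5p it was r = 0.838 and rho = 0.845 (permutation p = 1e-05, 3e-05 adjusted), r = 0.797 without the 2 farthest libraries, and rho = 0.952, 0.976 and 0.762 within the days. At day 180 that relation did not pass after adjustment over the 18 tests within days (exact permutation adjusted p = 0.076 for rho and 0.178 for r = 0.652). With miR-208b-3p it was r = 0.130 and rho = 0.153 (permutation p = 0.548 and 0.472), and rho was -0.36, 0.45 and -0.17 within the days. The pooled values contain the groups and days, so they describe the libraries as a whole, and levels of 2 miRNAs in 1 library share its total.

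The miRNAs outside the 4 whose levels were most like miR-208a-3p were named by rank of rho among 623 miRNAs. In the 24 libraries the myosin-gene miRNAs miR-208a-5p and miR-499-5p ranked first and second, followed by miR-1a-3p (rho = 0.808), miR-1b-5p (0.765), miR-133a-3p (0.672), miR-137-3p (0.629) and miR-144-3p (0.599). miR-1 and miR-133 are the abundant miRNAs of heart and skeletal muscle, and miR-144 is a miRNA of red cell precursors. With the mean of each group subtracted, so that only differences between libraries of a group remain, the order was miR-208a-5p (0.942), miR-133a-3p (0.897), miR-1a-3p (0.888), miR-1b-5p (0.867), miR-499-5p (0.709), miR-384-5p (0.621) and miR-384-3p (0.608). miR-208b-3p ranked 146 in the first order and 358 in the second.

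**Figure D4:**
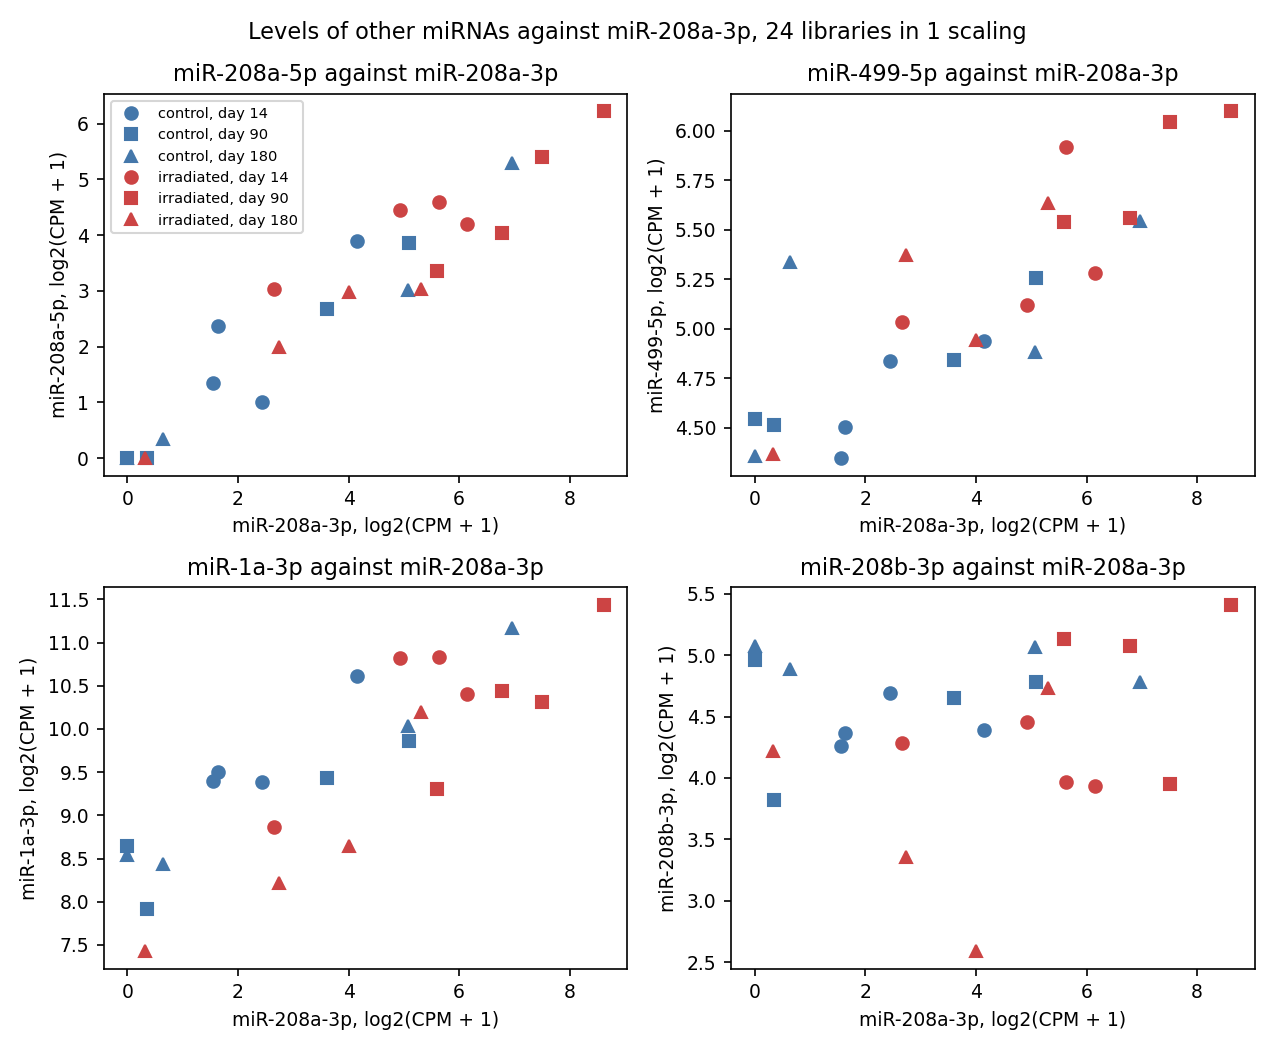
Levels of miR-208a-5p, miR-499-5p, miR-1a-3p and miR-208b-3p (y axes) against miR-208a-3p (x axes), as log2(CPM + 1) in 1 scaling, 1 point per library, with colour for treatment and shape for day. Points line up for miR-208a-5p (rho = 0.937), miR-499-5p (rho = 0.845) and miR-1a-3p (rho = 0.808), and scatter for miR-208b-3p (rho = 0.153).

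The other striated muscle miRNAs were a list of 11, of which 4, 5 and 4 were tested at day 14, 90 and 180. At day 90, 1 of 5 passed and 5 of 5 had a log2 fold change above 0, with a median of 1.48 beside -0.02 over all miRNAs tested, of which 48% were above 0. The one that passed was miR-133b-3p, which rose to 9.24 ± 1.76 from 1.63 ± 0.755 CPM (log2 fold change 2.48 ± 0.36, edgeR adjusted p = 0.0221), and reads could be split between it and its near copy miR-133a-3p. miR-133a-3p stood at 322 ± 132 against 115 ± 58.8 CPM (edgeR adjusted p = 0.159) and miR-1a-3p at 1599 ± 941 against 604 ± 337 CPM (0.269). The median of the 4 myosin-gene miRNAs was 1.94 on that day, with 4 of 4 above 0. For day 14 the list had 3 of 4 above 0 with a median of 0.11, and the myosin-gene miRNAs 3 of 4 with 1.22, where 51.9% of all miRNAs tested were above 0 and their median was 0.01. At day 180 the list had 1 of 4 above 0 with a median of -0.45, and the myosin-gene miRNAs 1 of 4 with -1.24, where 58.9% of all were above 0 and their median was 0.13. None of the list or of the 4 passed on either day. No miRNA at all was called at day 90 without control library 1 or without irradiated library 1, 2 or 3, nor with the library number as a block or in the fit of all 24 libraries, so the call of miR-133b-3p was lost there.

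The summed level of the striated muscle list ran from 355 to 1251 CPM in the controls and from 883 to 3570 CPM in the irradiated lungs of day 90. At day 14 it ran from 708 to 2523 CPM in controls and from 517 to 1937 CPM in irradiated lungs, and at day 180 from 587 to 3130 and from 418 to 1751 CPM. No listed member was at 0 in all libraries of a day. The controls with 0 to 2 counts of miR-208a-3p, which were libraries 1 and 4 of day 90 and libraries 1 and 3 of day 180, held 879, 1577, 1445 and 1242 counts of miR-1a-3p. The control with the highest miR-208a-3p count of its day, library 2 at day 90 and library 4 at day 180, held 3373 and 7819 counts of miR-1a-3p. Not every striated muscle miRNA had this pattern. miR-133b-3p was lowest among the day 90 controls in library 2, at 0.591 CPM, where miR-208a-3p was highest. These are few counts, 2 against 6, 8 and 7 in the other controls. In the controls of day 14 and day 180, miR-133b-3p was highest where miR-208a-3p was, in library 2 with 55 counts and library 4 with 16. miR-206-3p was 4.61 CPM in irradiated library 4 of day 90 and 40.3 CPM in irradiated library 4 of day 180, where miR-208a-3p had 750 counts and 1 count. miR-1a-3p, miR-1b-5p and miR-133a-3p are those that ranked close to miR-208a-3p, and their part in its difference between irradiated and control lung was not tested.

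Set against miR-1a-3p, a measure chosen after the values were seen, miR-208a-3p amounted to 1.14, 35.6, 16.2 and 0 counts per 1000 miR-1a-3p counts in the day 90 controls and to 78.5, 141, 75.0 and 143 in the day 90 irradiated lungs. These groups did not overlap, as was already the case for miR-208a-3p alone on that day, and the measure was not tested. The day 14 values were 6.62, 10.7, 2.87 and 2.90 in controls and 51.6, 11.4, 26.6 and 16.3 in irradiated lungs. These did not overlap either, but the closest values, 11.4 in irradiated library 2 (exact 95% Poisson interval of its 14 counts 6.22 to 19.1) and 10.7 in control library 2 (7.97 to 14.0), differ by less than counting error. At day 180 they were 0, 31.1, 1.61 and 53.7 in controls and 33.0, 19.2, 37.6 and 1.47 in irradiated lungs, with wide overlap. At day 90 the 2 arms of miR-122, a miRNA of hepatocytes, summed to 166 to 473 CPM in controls and 660 to 1069 CPM in irradiated lungs. Of these, miR-122-3p passed (60.9 ± 11.6 against 19.4 ± 5.84 CPM, edgeR adjusted p = 0.0221) and miR-122-5p did not (0.076), and the call of miR-122-3p was lost in the same fits as that of miR-133b-3p. Erythroid miRNAs summed to 27196 to 32153 CPM in controls and 28802 to 36467 CPM in irradiated lungs, with 0 of 5 past the threshold. One of the 5, miR-144-3p, stood at 3074 ± 1528 against 1092 ± 507 CPM, without overlap (log2 fold change 1.49 ± 0.40, edgeR adjusted p = 0.156). The others of the 5 overlapped, with log2 fold changes of -0.06 to 0.52, and the other arm of miR-144 had 0.42. The part of these in the miR-208a-3p difference was not tested either.

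Since PPP6C is named in the study's title, the longest annotated 3′ UTR of mouse Ppp6c, 2987 bases in GENCODE on GRCm38, was searched on its own strand for letters that pair with the seeds. The 7 letters CGTCTTA, which pair with bases 2 to 8 of miR-208a-3p and miR-208b-3p, did not occur, and 1.52% of 21022 annotated 3′ UTRs hold them. The 7 letters AGTCTTA, which pair with bases 2 to 8 of miR-499-5p, did not occur either (9.47%). The shorter pairing to bases 2 to 7 followed by an A, GTCTTAA, is the same for all 3 of these miRNAs and occurred 1 time. It is shown with the bases before it and the match in capitals, at chr2:39197098-39197119 on the minus strand.
Ppp6c: gaagacttgagaaatGTCTTAA
That match spans bases 237 to 243 of the UTR, and 20.2% of the 2828 UTRs at least as long hold the same letters within their first 2987 bases. This describes the letters only, and no target was measured in these libraries.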

How the data were processed

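The authors deposited, for each day, a table with a count and an RPM value per mature miRNA and library. Per the file headers, the counts are raw, and the values are whole numbers. The authors' RPM values rest on totals of 11984009 to 16081430 per library, about 4 times the counts listed; the sources used here do not give what those totals hold. RPM served only as an alternative library size. Small RNA of 18 to 30 nt was cut from a gel, ligated to adaptors and amplified by PCR, per the labels' protocols. The submitters' processing notes name Bowtie2 and GRCm38.p6, with no role and no Bowtie2 version. No column of values was left unused (0).

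The tests ran on counts with edgeR 4.0.16 (R 4.3.3): filterByExpr, TMM scaling, the legacy quasi-likelihood F-test, and Benjamini-Hochberg adjustment over all miRNAs tested, each day alone. Differences between days came from 1 fit of the 24 libraries on 624 shared miRNAs, in which the 6 groups share an estimate of the spread. Total counts were 2832205 to 3695133 per library, so 3 counts, the limit that a count of 0 allows, stand for 0.758 to 1.24 CPM. Intervals of shares are exact 95% binomial (Clopper-Pearson). Permutation tests are two-sided and exact for 4 against 4 libraries. The edgeR steps were tested on simulated data. Alternatives were RLE scaling, the RPM totals, no filter, DESeq2 1.42.0, limma-voom (limma 3.58.1), edgeR's newer fit, the library number as a block, each library left out in turn and, for ratios, 0.5 counts added. At day 14 same-numbered control and irradiated libraries deviated together (correlations of 0.172 to 0.465), so the numbers were also taken as pairs there, beside the unpaired main test. The labels give no reason for it. Such correlations were -0.224 to 0.355 at day 90 and -0.356 to -0.0934 at day 180. Named are the 4 miRNAs, striated muscle miRNAs, miRNAs that share a seed, and the 5 miRNAs ranked most like miR-208a-3p by each of 2 measures. The members and lists were chosen with earlier results of these data known.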

Additional observations from a re-analysis of the deposited data

Results flagged for a closer look

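Within-group outliers were looked for in 42 groups of 4 libraries, where a library counts if its gap to the next is a larger share of the group's range than Dixon's 95% critical value for 4 values. Chance gives about 1 in 20 groups, and there were 2. The miR-208a-3p level of control library 2 at day 14, 15.4 CPM, lay far above the nearest other control at 4.02 CPM, with 0.831 of the range between them. This is also the library with high miR-206-3p, miR-205-5p and miR-203-3p (3285 against 514 to 712 CPM in the other controls of that day). The log2 ratio of miR-208a-3p to miR-208a-5p in irradiated library 1 at day 180, 2.37, lay above the nearest other at 1.09, with 0.853 of the range between them. Irradiated library 4 of that group held 1 count of the hairpin, so its ratio is set by the added count.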

How the results depend on the processing

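The miR-208a-3p log2 fold change kept its sign at day 14 (2.13 to 3.79) and day 90 (3.29 to 6.10) under all 16 alternatives, and passed under 1 of them, at day 90 without the filter (3.98, edgeR adjusted p = 4.51e-05). miR-208a-5p passed there too (2.83, 0.00343), and miR-499-5p with DESeq2 (1.01, 0.00728). At day 180 the sign was not settled: miR-208a-3p was 0.43 with limma-voom, 0.32 with the replicate block and -2.47 to 0.40 with 1 library left out, and miR-208a-5p was 0.12, 0.34 and -1.84 to 0.74. miR-499-5p was -0.048 with no filter and -0.14 to 0.27 with 1 library left out. With 1 library left out the ratio of miR-208a-3p to miR-208a-5p differed by -0.0022 to 0.90 at day 14 and -0.14 to 0.58 at day 180, and that to miR-499-5p by -1.03 to 1.54 at day 180. The cause was not tested. miR-208b-3p kept its sign throughout.

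Calls over all miRNAs at day 14 were 7 with no filter, 1 with DESeq2, 1 in the fit of all 24 libraries and 0 to 1 with 1 library left out. At day 90 they were 18 with no filter, 19 with DESeq2, 5 with the newer fit, 0 in the fit of all 24 libraries, 0 with the replicate block and 0 to 7 with 1 library left out. At day 180 they were 18, 28, 3 and 32 with no filter, DESeq2, the newer fit and the fit of all 24 libraries, and 0 to 5 with 1 library left out. Differences between days gave 0 to 18 calls (day 180 against 14) and 0 to 10 (day 180 against 90) with 1 library left out. At day 14 the replicate block gave 2.78 for miR-208a-3p (edgeR adjusted p = 0.698), and it changed no call of the 4 miRNAs on any day. Libraries at 0 to 3 counts limit what can be said of miR-208a-3p in 5 of 24 libraries and of miR-208a-5p in 6.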
